A study of Arabidopsis thaliana with 21 samples.

Results

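Compounds A and B are a pair of small molecules, known here only by these letters, from a chemical genetic screen for inhibitors of the transcriptional response to auxin. They were compared directly in the absence of added auxin: 4 arrays of Arabidopsis thaliana seedlings treated with 10 µM A were set against 3 arrays of seedlings treated with 10 µM B, 7 of the 21 arrays of the series, and all 22746 probe sets other than the array's own controls were tested. The arrays were taken by their titles, dose and time matched, and this comparison was picked with earlier results of these data known. Seedlings of the accession Col-0 had grown for 7 days in the light in liquid 0.5 MS medium with 1.5% sucrose, without a transgene or mutation named in the labels, and every treatment lasted 1 h. The other groups used here were the solvent DMSO alone (n = 4), 5 µM of the auxin indole-3-acetic acid (IAA) with 10 µM A (n = 3) and 5 µM IAA with 10 µM B (n = 3). A further group, 5 µM IAA alone (n = 4), entered only the estimate of the spread. The labels do not state how replicates were raised, whether from 1 culture or several, so the p-values measure the spread between these samples, which may be technical.

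Auxin acts by joining its receptors to Aux/IAA repressor proteins, which are then degraded by the proteasome and release the transcription of early genes such as those of the GH3, Aux/IAA and LBD families. Foreign small molecules can also act on plant transcription apart from any target pathway. Seedlings commonly answer them with glutathione transferases and glycosyltransferases, which attach glutathione or sugar to the compound, and with chaperones where proteins are damaged. The root hair, an outgrowth of a single epidermal cell, is in direct contact with a liquid medium, and its growth depends on wall-loosening expansins and on structural wall glycoproteins. The comparison of A with B asks which of these responses set the compounds apart when no auxin was added.

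The values are log2 signals of each probe set on each array, and a difference of 1 is a 2-fold difference. Array medians lay between 7.17 and 7.25, and the median SD of a probe set was 0.14 among the A arrays and 0.11 among the B arrays. A 2 stood farthest from its group on the first component of the residuals, at -36.0, followed by DMSO 4 at 31.4 and DMSO 2 at -24.9. The array IAA 2, of the group with IAA alone, carries compound B as its treatment in its information file although its title names IAA only. IAA 2 read 5.18 for GRX480, a glutaredoxin gene, and 10.14 for LBD29. The other IAA arrays read 5.37 to 6.19 and 9.53 to 10.65, and the B arrays 10.26 to 10.66 and 5.67 to 5.96. IAA 2 was kept under its title, and leaving it out gave 1284 calls between A and B in place of 1448. In whole seedlings, fewer cells of a type and less RNA per cell cannot be told apart. The root markers PYK10 and its jacalin lectins (7 measured) averaged 10.12 to 10.55 over the A arrays and 10.26 to 10.58 over the B arrays. The light-harvesting and photosystem genes (26 measured), markers of green tissue, averaged 10.79 to 11.17 and 10.93 to 11.28. Both ranges overlapped, and 0 members of either list passed the test, beside 6.37% of all probe sets. The second list also holds genes of the plastid genome, such as psbD and psaC. Whether the make-up of the tissue differed was not tested.

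Of the 22746 probe sets, 1448 (6.37%) differed between A and B at an adjusted p under 0.05 (limma, Benjamini-Hochberg over all probe sets). The signal was higher with A for 962 of them (4.23%) and higher with B for 486 (2.14%). The large differences lay mostly on the A side, where 218 probe sets differed at least 2-fold, against 32 on the B side. All 4 A arrays lay above all 3 B arrays in 902 of the 962, and below them in 458 of the 486, beside 8.96% and 8% of all probe sets with no overlap in these directions. The same arrays chose these probe sets, so both counts only describe the calls and are no support for them. Of the called probe sets, 768 are paired with 1 gene, 29 with several and 651 with none in the annotation used, so many of the differences cannot be named. For most of the array the compounds differed by little: the 95% interval of A minus B lay wholly within 1 log2 unit of 0 for 21477 probe sets (94.4%), with a median half-width of 0.22. The number of calls depended on single arrays, being 959 without A 1, 526 without B 2 and 485 without B 3. It also depended on the spread taken from the other groups. With only the A and B arrays fitted, the number was 602, with 462 higher with A and 140 higher with B. It rose to 3310 with array weights and to 2771 without A 2, DMSO 2, DMSO 4 and the first array of IAA with B, with 56.4% and 56.0% of calls higher with A in place of 66.4%. Where arrays are named below as ending a call, other alternative fits could end it too. An adjusted p given as up to a value is the highest over all of these fits.

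**Figure D1:**
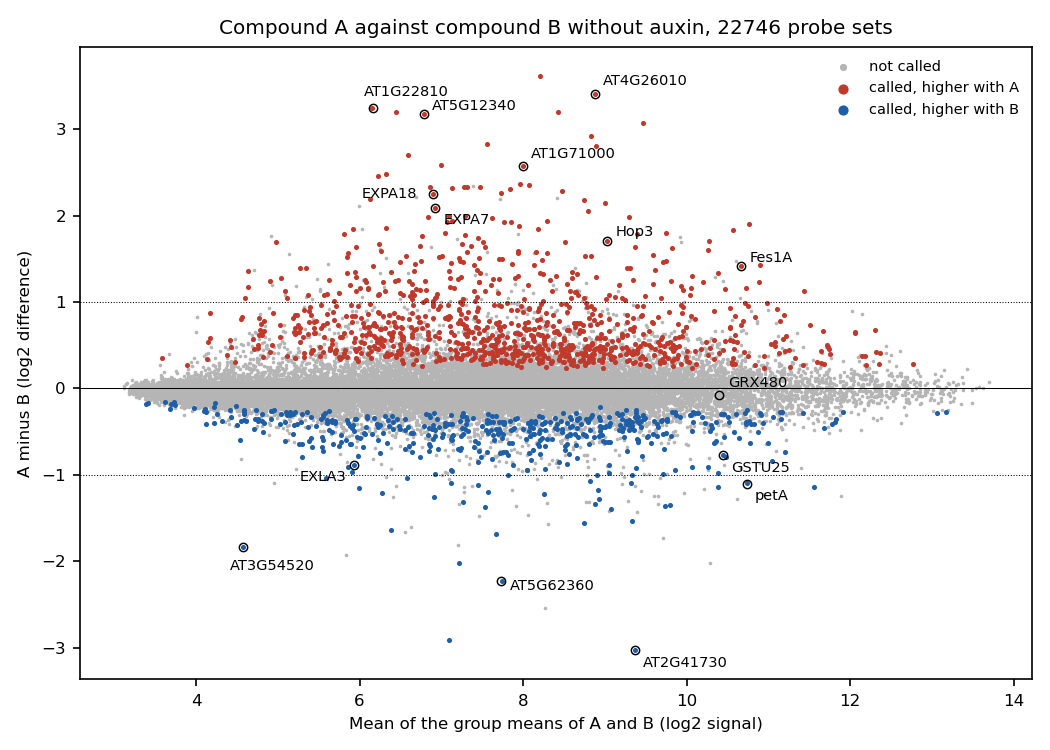
The log2 difference of A minus B is plotted against the mean of both group means for 22746 probe sets, with called probe sets in red (962, higher with A) and blue (486, higher with B) and dotted lines at a 2-fold difference. The red points reach farther from 0 than the blue ones, with 218 against 32 past the dotted lines, and GRX480 lies among the grey points near 0.

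The position of DMSO tells how each difference was made up, as a description only, since the same A and B arrays chose these probe sets. Among the 218 probe sets at least 2-fold higher with A, B lay below DMSO with a median of -1.25 (quartiles -1.64 and 0.16), while A lay near it with a median of 0.13 (quartiles -0.15 and 1.45). In the test of B against DMSO 131 of the 218 were called lower and 33 higher, beside 4.77% and 3.99% of all probe sets (8.75% in all). In the test of A against DMSO 74 were called higher and 1 lower, beside 5.45% and 2.94% of all probe sets (8.39% in all). Among the 32 at least 2-fold higher with B, the median was 1.73 above DMSO in B and 0.24 above it in A. There B was called above DMSO for 25, and A was called above it for 11 and below it for 3. The named genes are given in the order of this position.

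The largest named difference on the A side, and many after it, belonged to genes at about the solvent level with A and far below it with B. EXPA7 and EXPA18, expansins that loosen the wall of growing root hairs, were 4.26-fold and 4.74-fold higher with A than with B. HRGP1, a hydroxyproline-rich wall glycoprotein, was 3.97-fold higher, GH9C1, a glycosyl hydrolase of the cellulase family, 2.84-fold, and XTH26, an enzyme that cuts and rejoins the xyloglucan of the wall, 5.5-fold. Locus AT4G26010, for which the gene table gives no name, was 10.6-fold higher.

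EXPA7 read 7.83, 8.74, 7.71 and 7.59 on the A arrays, 6.02, 5.85 and 5.75 on the B arrays, and 7.97, 7.38, 8.14 and 7.85 with DMSO. A and DMSO overlapped, and every B array lay at least 1 log2 unit below all of them. The difference A minus B was 2.09 ± 0.22 (SE; adjusted p = 1.19e-05), with A at 0.13 from DMSO (adjusted p = 0.767) and B at -1.96 (adjusted p = 2.54e-06). EXPA18 read 7.81, 8.82, 7.71 and 7.72 with A, 6.25, 5.74 and 5.32 with B, and 8.79, 7.25, 8.72 and 8.31 with DMSO. Again only B stood apart from the solvent, and A 2 was the highest A array for both expansins. The difference for EXPA18 was 2.25 ± 0.31 (adjusted p = 0.000189).

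HRGP1 read 9.69, 11.16, 10.02 and 10.28 with A and 8.91, 7.89 and 8.10 with B, against 9.54 to 10.58 with DMSO. The groups A and B did not overlap, and the difference was 1.99 ± 0.33 (adjusted p = 0.00119). Its probe set is of the type whose probes may also bind related transcripts, so HRGP1 cannot be told from close relatives. GH9C1 read 7.75, 8.45, 7.63 and 8.04 with A and 6.71, 6.43 and 6.25 with B, a difference of 1.5 ± 0.23 (adjusted p = 0.000635). XTH26 read 7.27, 8.06, 7.23 and 7.27 with A and 5.29, 4.77 and 4.93 with B, a difference of 2.46 ± 0.60 (adjusted p = 0.0191). Its call was lost without B 2 and without B 3, with an adjusted p of up to 0.0894, although the difference stayed between 2.26 and 2.61 over the alternatives. DMSO 2 read 4.38 for XTH26, below every B array, while the other DMSO arrays read 7.63 to 8.38. XTH26 was the 1 of 10 measured genes of its enzyme family to pass (10.0%, beside 6.37% of all probe sets). The median of that list was 0.13.

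AT4G26010 read 10.48, 11.47, 10.30 and 10.09 with A and 7.99, 6.67 and 6.86 with B, a difference of 3.41 ± 0.40 (adjusted p = 3.76e-05). The loci AT1G34510 (3.20 ± 0.56), AT5G04960 (2.59 ± 0.43), AT3G49960 (2.33 ± 0.39), AT4G25790 (2.32 ± 0.34) and AT1G02360 (2.35 ± 0.34) showed the same order, each within 0.30 of DMSO with A and between -2.34 and -3.50 with B. In all of these loci the A and B arrays did not overlap, and each call held in every alternative. The largest difference of all probe sets, 3.62 ± 0.42 (adjusted p = 3.63e-05), belonged to a probe set with no gene in the annotation, which read 9.59 to 10.79 with A and 5.64 to 7.57 with B.

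Single arrays moved with these genes. A 2 read highest of the A arrays for EXPA7, EXPA18, HRGP1, GH9C1, XTH26 and AT4G26010. DMSO 2 read lowest of the DMSO arrays for the same 6 genes, and B 1 read highest of the B arrays for all 6. Leaving out A 2 was among the alternatives, and the smallest difference that any alternative gave was 1.83 for EXPA7 and 1.98 for EXPA18. The mean of the root hair list (3 measured members) lay between 8.13 and 8.90 on the A arrays, between 6.71 and 7.10 on the B arrays and between 7.93 and 8.73 on the DMSO arrays. The third member, SCN1, which confines root hair outgrowth to 1 site of the cell, differed by 0.03 ± 0.07 (adjusted p = 0.857). Other root hair genes of the list could not be named on this array with the annotation used.

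A few glucosyltransferases and hydroxylases also read lower with B than with A, AT1G55290 and AT3G13610 being named after their values were seen. UGT72E2, which glucosylates monolignols, read 9.58, 9.57, 9.28 and 9.70 with A, 7.86 to 8.49 with B and 8.80 to 9.78 with DMSO, a difference of 1.29 ± 0.20 (adjusted p = 0.000747). AT1G55290, named F6'H2 in the table's synonyms and known as a coumarin-forming hydroxylase, differed by 0.70 ± 0.14 (adjusted p = 0.00407) and its relative AT3G13610, F6'H1, by 0.94 ± 0.26 (adjusted p = 0.0358). Against DMSO, AT1G55290 was called with neither compound, at 0.33 with A and -0.37 with B (adjusted p = 0.114 and 0.108). UGT71C1, another glucosyltransferase, differed by 0.79 ± 0.17 (adjusted p = 0.00745). AT3G13610 overlapped between the groups and lost its call without A 1, A 3, B 2 or B 3 (adjusted p up to 0.182), and UGT71C1 lost its call without B 2 (0.0698). WES1, also named GH3.5, joins auxin to amino acids and read 8.33 to 8.90 with A, 7.83 to 8.05 with B and 8.51 to 8.89 with DMSO. It was the only GH3 gene of 5 measured that passed (beside 6.37% of all probe sets), at 0.74 ± 0.18 (adjusted p = 0.0193), and the call was lost without A 1, B 2 or B 3 (adjusted p up to 0.0927).

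**Figure D2:**
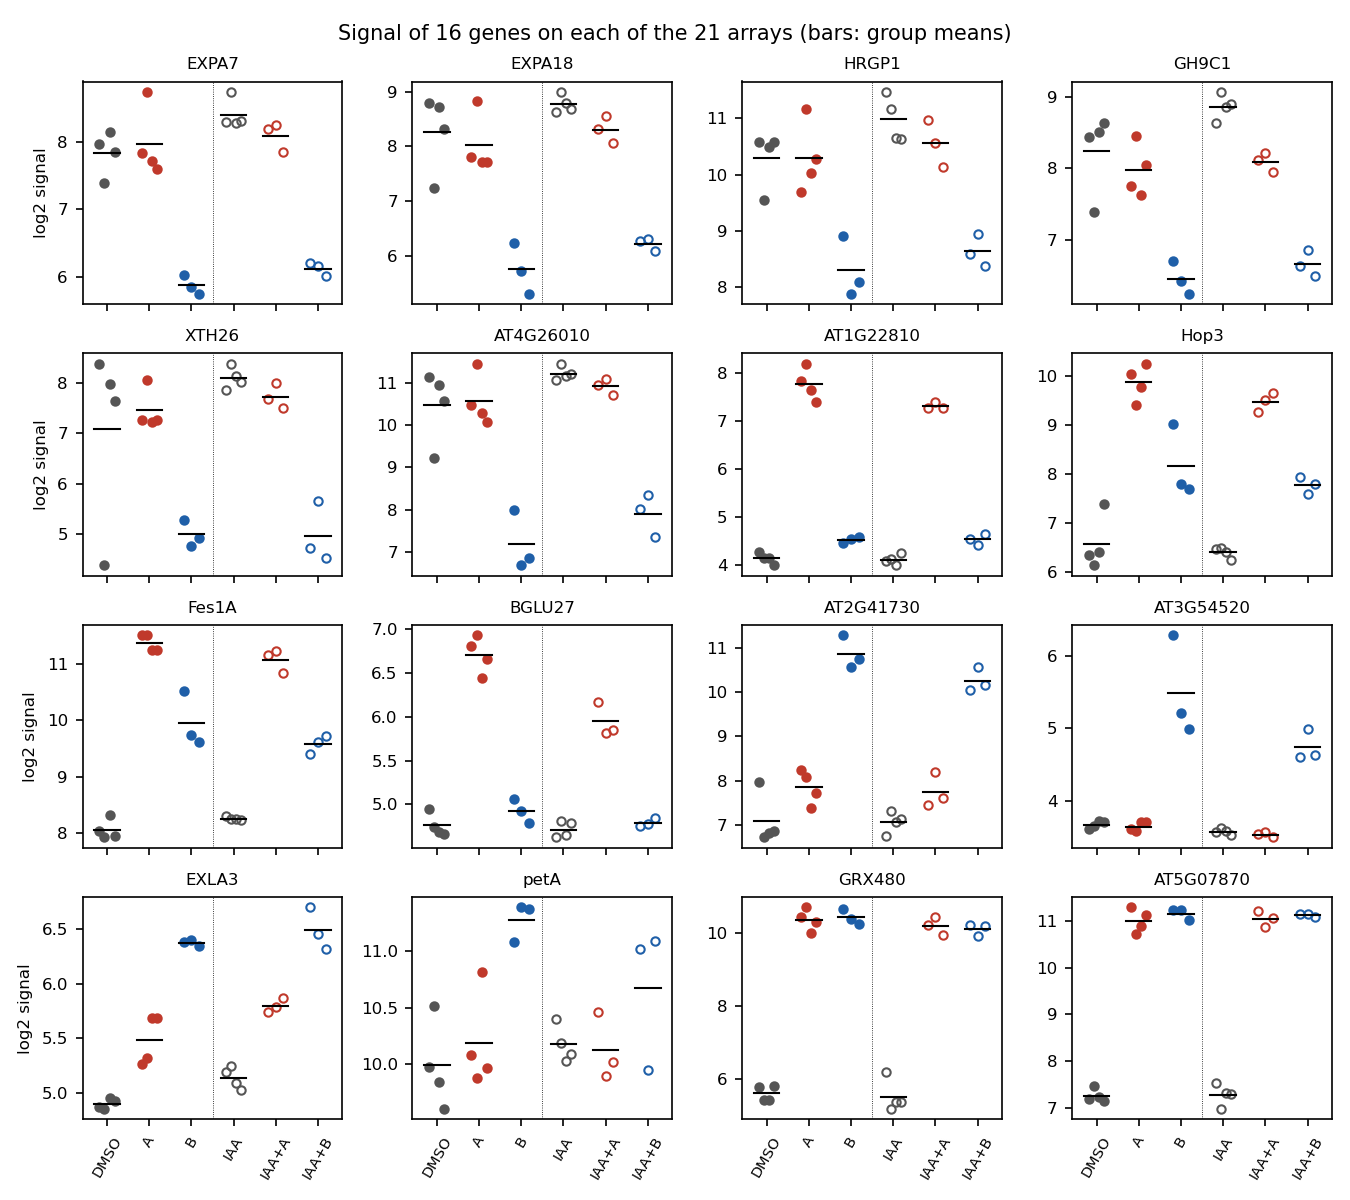
Log2 signals of 16 genes are plotted for each array, with DMSO in grey, compound A in red, compound B in blue, filled points without IAA, open points with IAA and a black bar at each group mean. EXPA7, EXPA18 and HRGP1 are low only in the B groups, AT1G22810 is high only in the A groups, AT2G41730 is high in the B groups, and GRX480 is high with either compound.

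Another set of genes stood above DMSO with A and at or nearer to the solvent level with B. It included chaperones and their partners, β-glucosidases, and several loci without a name. Hop3, a co-chaperone that links the HSP70 and HSP90 chaperones, was 3.26-fold higher with A than with B. Fes1A, which binds HSP70 and protects it under heat, was 2.67-fold higher. BGLU27 and BGLU28, both β-glucosidases, were 3.45-fold and 2.56-fold higher. Locus AT1G22810 was 9.45-fold higher and had the smallest p of the genes named here.

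AT1G22810 read 7.84, 8.20, 7.66 and 7.40 with A, 4.46, 4.56 and 4.59 with B, and 4.28, 4.15, 4.16 and 4.02 with DMSO. A lay far above both other groups, whose ranges came close to each other without overlapping. A minus B was 3.24 ± 0.13 (adjusted p = 5.93e-12), A minus DMSO was 3.62 (adjusted p = 3e-14) and B minus DMSO was 0.38 (adjusted p = 0.0672). BGLU27 read 6.81, 6.93, 6.44 and 6.66 with A, 5.06, 4.92 and 4.78 with B, and 4.66 to 4.95 with DMSO. Its A minus B was 1.79 ± 0.11 (adjusted p = 1.65e-08), and B overlapped DMSO. BGLU28 read 7.65, 7.61, 7.59 and 8.24 with A and 7.19, 5.93 and 6.13 with B, a difference of 1.36 ± 0.22 (adjusted p = 0.00088).

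Hop3 read 10.04, 9.41, 9.79 and 10.26 with A, 9.02, 7.79 and 7.70 with B, and 6.34, 6.13, 6.41 and 7.38 with DMSO. The 3 groups did not overlap: Hop3 rose with both compounds, by 3.31 with A and by 1.61 with B (adjusted p = 0.000764 for B), and A exceeded B by 1.71 ± 0.29 (adjusted p = 0.00124). Fes1A read 11.50, 11.50, 11.25 and 11.25 with A, 10.52, 9.74 and 9.61 with B, and 7.93 to 8.32 with DMSO, and A exceeded B by 1.42 ± 0.16 (adjusted p = 3.33e-05). For Hop3, Fes1A and BGLU28, B 1 was the highest B array.

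Of 6 measured large heat shock proteins and co-chaperones, 3 (50.0%) were higher with A and 0 lower, beside 4.23% and 2.14% of all probe sets, and the list median was 0.42 beside -0.02 over all probe sets. Besides Hop3 these were AT5G48570, named ROF2 in the synonyms, an immunophilin of the heat response, at 1.15 ± 0.32 (adjusted p = 0.0352), and Hsp70-2, a cytosolic chaperone, at 0.69 ± 0.16 (adjusted p = 0.0146). For both, the A and B arrays met or overlapped. ROF2 lost its call without A 1, A 3, A 4, B 2 or B 3 (adjusted p up to 0.205) and Hsp70-2 without B 2 or B 3 (up to 0.102). The other members, Hop1 (-0.11), Hop2 (0.15) and CLPB2 (-0.03), were not called. ATHSP22.0, the 1 member that could be matched by name to the small heat shock protein list, read 8.62 to 10.44 with A and 7.63 to 9.06 with B and was not called (1.02 ± 0.44, adjusted p = 0.177).

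A further 3 genes, SGT1A, BZIP28 and DER1, were named after their values were seen and differed by smaller amounts. SGT1A, a co-chaperone of HSP90, read 9.63 to 9.78 with A, 8.61 to 9.18 with B and 8.46 to 8.90 with DMSO, and A exceeded B by 0.85 ± 0.11 (adjusted p = 0.000153). BZIP28, a membrane-tethered factor of the endoplasmic reticulum stress response, read 9.14 to 9.33 with A, 8.44 to 8.83 with B and 8.68 to 8.75 with DMSO, a difference of 0.59 ± 0.08 (adjusted p = 0.000187). DER1, also named DERLIN-1, of endoplasmic reticulum protein disposal, read 9.41 to 9.61 with A and 8.88 to 8.94 with B, a difference of 0.60 ± 0.10 (adjusted p = 0.00159). Another probe set paired with DER1 lay at 3.54 to 3.90 on these arrays, near the bottom of the scale, and gave -0.01 ± 0.07. At that level it can show little of a difference.

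Several lists held a single gene higher with A. PUB22, an E3 ubiquitin ligase that dampens immune signalling, read 8.81, 9.07, 8.49 and 8.62 with A and 7.97, 7.71 and 7.54 with B, and A exceeded B by 1.01 ± 0.20 (adjusted p = 0.00559). It was the 1 of 9 measured U-box ligases to pass. Its relatives PUB23 and PUB24 stood at 0.39 ± 0.28 (adjusted p = 0.431) and 0.74 ± 0.26 (adjusted p = 0.0892). WRKY6, a stress-responsive transcription factor, was the 1 of 7 WRKY factors to pass (0.84 ± 0.23, adjusted p = 0.0348), and CML23, a calmodulin-like calcium sensor, the 1 of 8 in its list (0.76 ± 0.22, adjusted p = 0.0454). WRKY6 lost its call without A 1, A 2, B 2 or B 3 (adjusted p up to 0.166), and CML23 did so without any of A 1, A 3, A 4, B 2 and B 3 and also after quantile scaling (up to 0.169). These single calls are 11.1% of the U-box ligases, 14.3% of the WRKY factors and 12.5% of the calmodulin-like proteins, beside 6.37% of all probe sets, and in lists this small they say nothing about the list.

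Of 51 UDP-glycosyltransferases, 4 were higher with A and 0 with B, or 7.84% of the list beside 6.37% of all probe sets, and the list median was 0.01. UGT73D1 read 7.70, 7.89, 7.12 and 6.31 with A, 5.73, 5.20 and 5.26 with B and 5.39 to 6.59 with DMSO, a difference of 1.85 ± 0.31 (adjusted p = 0.00111). UGT76D1 differed by 0.62 ± 0.16 (adjusted p = 0.0274) and lost its call without A 1, B 2 or B 3 (adjusted p up to 0.139). UGT72E2 and UGT71C1, given above, complete the count. CCR2, a cinnamoyl-CoA reductase of lignin formation that shares its symbol with a clock gene, read 9.24, 8.62, 8.93 and 8.85 with A, 7.69, 7.72 and 7.96 with B and 5.47 to 6.0 with DMSO. It rose with both compounds and was 2.18-fold higher with A (1.12 ± 0.14, adjusted p = 9.32e-05). APS3, an ATP sulfurylase that starts sulfate assimilation, read 10.82 to 10.94 with A, 10.13 to 10.56 with B and 8.93 to 9.88 with DMSO, and A exceeded B by 0.62 ± 0.16 (adjusted p = 0.0247, up to 0.131 without A 1, B 2 or B 3).

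AT5G12340 and AT1G71000 were the other large differences of this kind. AT1G71000 read 8.52, 9.68, 9.13 and 9.79 with A, 6.98, 6.34 and 6.79 with B and 5.00 to 5.70 with DMSO, and it rose with both compounds, by 4.05 with A and by 1.48 with B. A exceeded B by 2.57 ± 0.28 (adjusted p = 2.04e-05). AT5G12340 read 9.04, 8.53, 8.42 and 7.49 with A, 5.60, 4.95 and 5.05 with B and 5.58 to 7.68 with DMSO. It rose by 1.85 with A (adjusted p = 0.00112) and fell by 1.32 with B (adjusted p = 0.0308), and A minus B was 3.17 ± 0.37 (adjusted p = 3.76e-05).

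**Figure D3:**
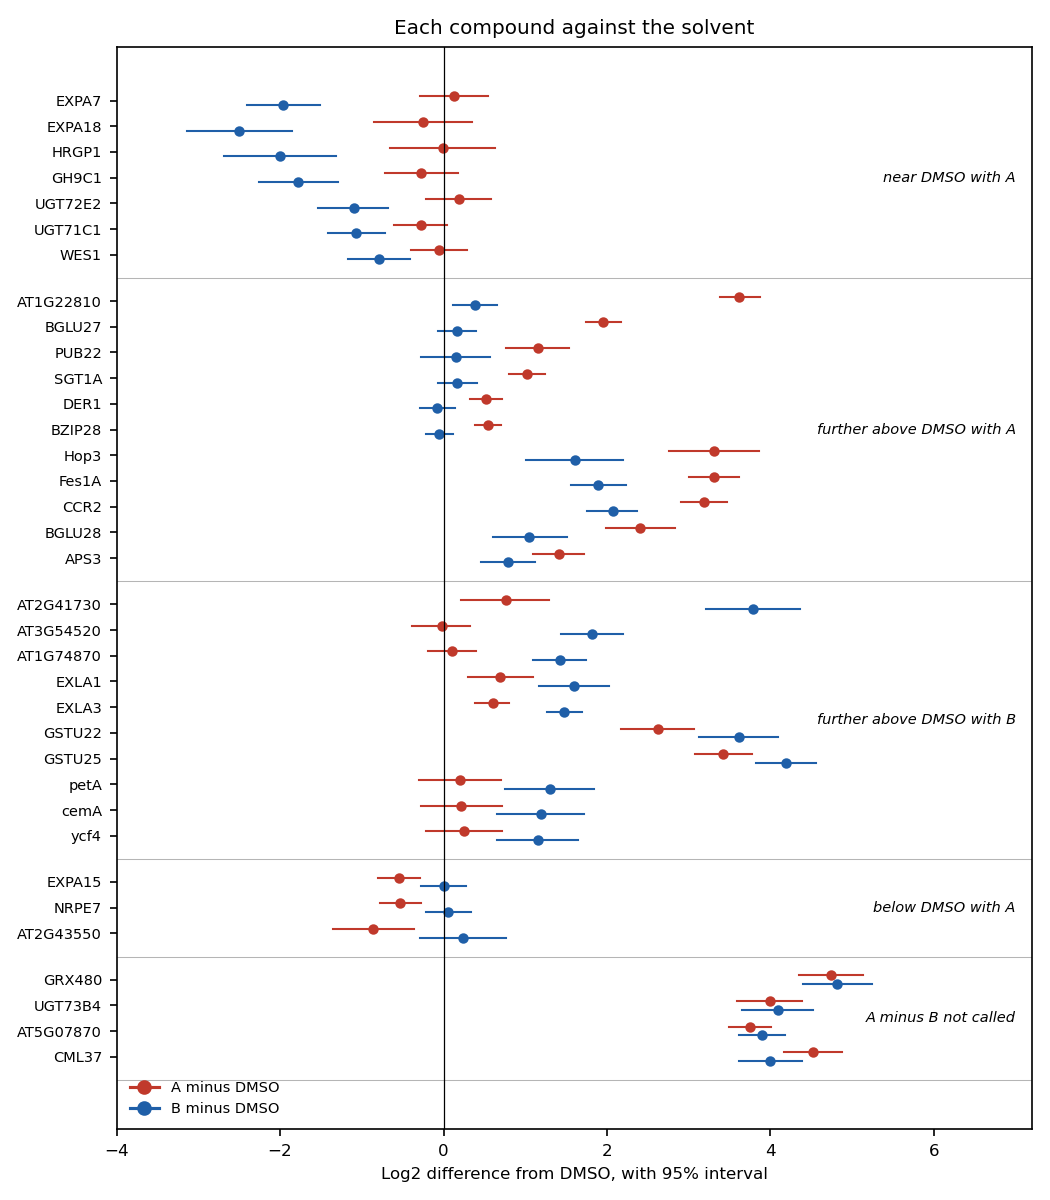
The log2 differences of A (red) and of B (blue) from DMSO are plotted with their 95% intervals for genes of the text, grouped by the position of A and B relative to the solvent. Both comparisons share the DMSO arrays. EXPA7 has A near 0 and B at -1.96, AT1G22810 has A at 3.62 and B at 0.38, AT2G41730 has A at 0.76 and B at 3.79, and GRX480 has A at 4.74 and B at 4.82.

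On the B side the largest named difference was AT2G41730, 8.15-fold higher with B. It read 11.29, 10.57 and 10.76 with B, 8.25, 8.07, 7.37 and 7.71 with A, and 7.97, 6.71, 6.82 and 6.85 with DMSO. The B arrays lay apart from all others, while A and DMSO overlapped. A minus B was -3.03 ± 0.28 (adjusted p = 3.81e-06), with B at 3.79 above DMSO (adjusted p = 6e-09). Its probe set, like that of HRGP1, may also bind related transcripts. A probe set without a gene gave -2.92 ± 0.28 (adjusted p = 6.24e-06), reading 8.14 to 9.26 with B and 5.10 to 5.99 with A.

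AT3G54520 read 3.61, 3.59, 3.71 and 3.71 with A and 3.61 to 3.72 with DMSO, at the lower end of the scale, and 6.28, 5.21 and 4.99 with B. B was higher (-1.84 ± 0.18, adjusted p = 7.77e-06), and no fold is given because a signal so near the lowest value of the table, 3.02, may not measure the transcript. AT5G13200 (-1.39 ± 0.18), AT4G36010 (-1.28 ± 0.26) and AT1G74870 (-1.31 ± 0.15) had B above A with no overlap and kept their calls in every alternative. AT5G62360 gave -2.23 ± 0.63 (adjusted p = 0.0394), but A 2 read 8.37 where the other A arrays read 5.93 to 6.20, and DMSO 4 read 7.05 where the others read 9.33 to 9.43. Against DMSO, AT5G62360 was lower with A (-2.18, adjusted p = 0.0219) and stood at 0.05 with B. Its A minus B call was lost without any of A 1, A 3, A 4, B 1, B 2 and B 3 (adjusted p up to 0.153).

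Expansins were called in both directions. Of 19 measured members, 2 were higher with A, the root hair expansins above, and 3 were higher with B, or 26.3% of the list beside 6.37% of all probe sets (4.23% and 2.14%), and the other members were not called. The list median was -0.17. EXLA3 and EXLA1, expansin-like genes separated by 1 gene on chromosome 3, read 6.35 to 6.40 and 10.35 to 10.61 with B, and 5.27 to 5.69 and 9.37 to 10.02 with A. The differences were -0.88 ± 0.11 (adjusted p = 4.35e-05) and -0.91 ± 0.20 (adjusted p = 0.0115), and neither overlapped. Both genes rose against DMSO with either compound, EXLA3 by 0.60 with A and 1.48 with B and EXLA1 by 0.69 and 1.60. EXPA15 instead fell with A, by 0.55 against DMSO (adjusted p = 0.00572), and stood at 0.01 from DMSO with B, so that A minus B was -0.55 ± 0.13 (adjusted p = 0.0164). The calls of EXLA1 (without B 2) and EXPA15 (without B 2 or B 3) were lost, with adjusted p up to 0.061 and 0.105.

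Tau class glutathione transferases, which attach glutathione to foreign compounds, gave 2 of 11 members (18.2%) higher with B and 0 higher with A, beside 2.14% and 4.23% of all probe sets, with a median of -0.21. GSTU25 read 11.16, 10.60 and 10.72 with B, 10.17, 9.79, 10.04 and 10.24 with A, and 6.12 to 7.01 with DMSO. GSTU22 read 10.57, 9.95 and 10.10 with B, 9.82, 9.25, 9.14 and 8.68 with A, and 6.06 to 7.00 with DMSO. Both genes rose strongly with either compound, and B exceeded A by a smaller step without overlap, GSTU25 at -0.77 ± 0.18 (adjusted p = 0.0142) and GSTU22 at -0.99 ± 0.23 (adjusted p = 0.0149). GSTU25 lost its call without B 1 (adjusted p = 0.0636) and GSTU22 without B 1 or B 3 (up to 0.072). Without A 2, and also without the 4 arrays that stood apart, 1 member of the list was called higher with A.

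A few transcripts of the plastid genome were higher with B. Of 69 measured plastid genes, a list chosen after the values were seen, 4 were higher with B and 0 with A. That is 5.8% of the list, near the 6.37% of all probe sets, 2.14% being higher with B. The median difference was -0.31 beside -0.02 over all probe sets. The 4 were rpl36, a ribosomal protein gene (-1.36 ± 0.39, adjusted p = 0.0451), petA, which encodes cytochrome f (-1.10 ± 0.26, adjusted p = 0.0155), cemA, an envelope membrane protein gene (-0.97 ± 0.25, adjusted p = 0.0274), and ycf4, a photosystem I assembly factor gene (-0.91 ± 0.24, adjusted p = 0.0273). petA, cemA and ycf4 lie next to each other on the plastid genome with 0 genes between them. petA read 11.08, 11.39 and 11.38 with B, 10.08, 9.88, 10.82 and 9.97 with A, and 9.60 to 10.52 with DMSO. ycf4 overlapped between A 3 and B 1. The calls were fragile: rpl36 was lost without any of A 1, A 2, A 4 and the 3 B arrays (adjusted p up to 0.162), cemA and ycf4 without A 2, A 4, B 2 or B 3 (up to 0.13 and 0.133), and petA without B 2 or B 3 (up to 0.08). Without A 2 the count of called plastid genes was 1.

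Smaller differences towards B included NRPE7, a subunit of RNA polymerase V, at -0.58 ± 0.13 (adjusted p = 0.0128). It read 6.62 to 7.20 with A and 7.35 to 7.50 with B. Against DMSO, NRPE7 was lower with A (-0.53, adjusted p = 0.00876) and stood at 0.06 with B. Its A minus B call was lost without B 3 and with only the A and B arrays fitted (up to 0.0754). OTP87, an organelle transcript processing factor, stood at -0.42 ± 0.08 (adjusted p = 0.00518). Of 7 class III peroxidases, enzymes of the wall and apoplast, 1 was called (14.3%, beside 6.37% of all probe sets), PRXR1, at -0.27 ± 0.06 (adjusted p = 0.0134), with 12.97 to 13.10 on the A arrays and 13.26 to 13.38 on the B arrays. PRXR1 lost its call when only the A and B arrays were fitted (0.0924). AT5G64120 of the same list stood at 1.75 ± 0.55 and was not called (adjusted p = 0.0643). The list was matched by symbol or synonym and does not describe the whole family. Loci with neither, among them AT4G26010, AT1G34510 and AT3G49960 above, could not enter it.

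**Figure D4:**
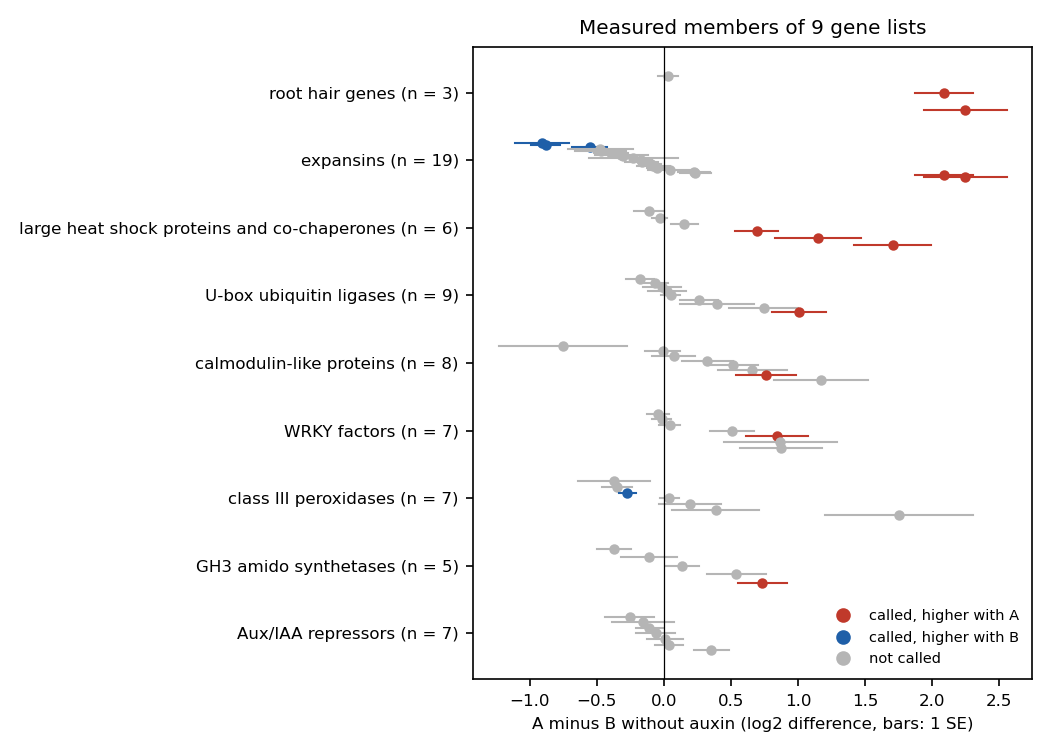
The log2 difference of A minus B without auxin is plotted with 1 SE for each measured member of 9 gene lists, in red where called higher with A, in blue where called higher with B and in grey where not called. The expansins spread to both sides with 2 red and 3 blue points, 3 of 6 chaperone genes are red, and all 7 Aux/IAA genes are grey and lie between -0.25 and 0.35.

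Some strong responses shared by both compounds did not separate them, as a description only. The first 10 genes below were chosen by calls against DMSO with both compounds on these same arrays, which favours genes moved alike. The 10 named genes with the largest mean difference from DMSO, among those that both A and B moved the same way, were called neither higher nor lower in A minus B. GRX480, a glutaredoxin of the redox response, read 10.43, 10.70, 10.01 and 10.30 with A and 10.66, 10.39 and 10.26 with B, against 5.44 to 5.82 with DMSO. The difference was -0.08, with a 95% interval from -0.50 to 0.35. UGT73B4 and UGT73B5, neighbouring glucosyltransferase genes, gave -0.09 (-0.53 to 0.34) and 0.27 (-0.27 to 0.82). AT5G07870 gave -0.15 (-0.43 to 0.13) and AT5G14730 gave 0.07 (-0.35 to 0.48). For these 5 genes the intervals leave out a 2-fold difference in either direction, but not smaller ones. CML37, a calmodulin-like protein, rose by 4.52 with A and by 4.00 with B, and the difference of 0.52 (0.14 to 0.90) missed the threshold after adjustment (adjusted p = 0.0964). For AT1G52560, AT1G05575, AT4G27654 and AT4G37290 the differences ran from -0.43 to 0.41, and the intervals of AT1G05575 and AT4G37290 reached past 1 log2 unit. STZ, also known as ZAT10, a zinc finger repressor, gave 0.29 (-0.34 to 0.92).

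Few of the auxin-related genes named here differed while no auxin was added. Of 7 measured Aux/IAA genes 0 passed, beside 6.37% of all probe sets, so the count says nothing about the family. These were IAA18, IAA20, IAA29, IAA30, IAA31, IAA33 and IAA34, and the list held no other member. Their median was -0.06, and the largest differences were IAA31 (0.35 ± 0.13, adjusted p = 0.112) and IAA30 (-0.25 ± 0.18, adjusted p = 0.44). LBD29 and LBD16, transcription factors of lateral root initiation, gave -0.16 ± 0.23 and -0.27 ± 0.17 (adjusted p = 0.745 and 0.381). HAT2, an auxin-induced HD-ZIP II factor, gave 0.08 (-0.27 to 0.42). WAG2, a kinase that acts on auxin carriers, read 6.60, 6.17, 6.16 and 6.03 with A, 6.57, 6.97 and 7.33 with B and 7.12 to 8.15 with DMSO, and the difference of -0.72 ± 0.26 did not pass (adjusted p = 0.0998). WAG2 fell by 1.43 with A against DMSO (adjusted p = 0.000325) and stood at -0.71 with B (adjusted p = 0.0983).

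Other lists held few or no calls. In these lists 0 members passed: 11 RALF-like peptides, 12 nitrate and phosphate transporters, 5 glutaredoxins and 2 type-A response regulators. Beside 6.37% of all probe sets, 0 calls in lists this small say nothing about the list. The 22 cytochrome P450 genes gave 1 (4.55%, beside 6.37% of all probe sets), CYP71B6, at 0.66 ± 0.19 (adjusted p = 0.0422, up to 0.155 without A 1, A 2 or any B array). BHLH101, a factor of the iron deficiency response, was the 1 of 3 iron genes to pass (33.3%), at 0.64 ± 0.15 (adjusted p = 0.0183, up to 0.0597 without any of the B arrays). The symbol CHI, which entered the flavonoid list, belongs here to a chitinase. It read 7.60 to 9.72 with A, 6.59 to 7.48 with B and 7.19 to 10.28 with DMSO (1.92 ± 0.56, adjusted p = 0.0473), and the call was lost without A 1, A 2, A 3, B 2 or B 3 (up to 0.18). The call of CHI was also lost without IAA 2, with other moderation of the variances and with only the A and B arrays. OSM34, an osmotin-like defence protein, behaved alike, with 10.35 to 12.46 with A and 9.42 to 9.99 with B (1.83 ± 0.45, adjusted p = 0.0208, lost without A 1, A 2, B 2 or B 3, up to 0.0992).

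The same contrast was available in arrays that share no sample with those above, namely IAA with A against IAA with B (n = 3 each). Both contrasts came from 1 fit, however, and share its estimate of the spread of each probe set. The calls are therefore not independent, and a probe set with a small spread is favoured in both. There 642 probe sets (2.82%) were called, 440 higher with A (1.93%) and 202 higher with B (0.888%). Of the 1448 probe sets called without IAA, 944 of the 962 and 471 of the 486 kept their sign with IAA present, or 97.7%, beside 70.7% of all probe sets, and 437 were called again, all in the same direction. These 437 are 30.2% of the calls without IAA and 68.1% of those with it. Of the 250 probe sets at least 2-fold apart without IAA, 249 kept their sign. Across all probe sets, which are not independent replicates, Pearson's r of both differences was 0.77, as a description. The count with IAA fell to 243 without the first or the second array of IAA with A, to 413 without the second and 279 without the third of IAA with B, and rose to 2076 without the 4 arrays that stood apart and to 3518 with array weights, where 44.3% of calls were higher with A in place of 68.5%.

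Of the 73 named genes and probe sets called without IAA, 34 were called again with it, all in the same direction. With IAA present EXPA7 was higher with A by 1.97 (adjusted p = 8.8e-05), EXPA18 by 2.08 (0.00163), HRGP1 by 1.91 (0.00469), GH9C1 by 1.43 (0.00318) and AT4G26010 by 3.04 (0.000525). EXPA7 read 8.18, 8.25 and 7.84 with IAA and A and 6.20, 6.16 and 6.01 with IAA and B, so the groups did not overlap. AT1G22810 was higher with A by 2.77 (adjusted p = 3.7e-10), Hop3 by 1.71 (0.00358), Fes1A by 1.48 (8.64e-05), CCR2 by 1.30 (9.24e-05) and ROF2 by 1.63 (0.0101). AT2G41730 was higher with B (-2.52, adjusted p = 8.8e-05), as were EXLA3 (-0.70, 0.00182) and AT5G13200 (-1.29, 0.000985). The plastid genes petA, cemA and ycf4 stood at -0.56, -0.48 and -0.44 and were not called. Nor were UGT73D1 (0.62, adjusted p = 0.353), Hsp70-2 (0.29, 0.436), EXLA1 (-0.67, 0.107), GSTU22 (-0.87, 0.0653) and GSTU25 (-0.44, 0.248), which kept their sign, or WES1 (-0.11, 0.836), which did not.

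**Figure D5:**
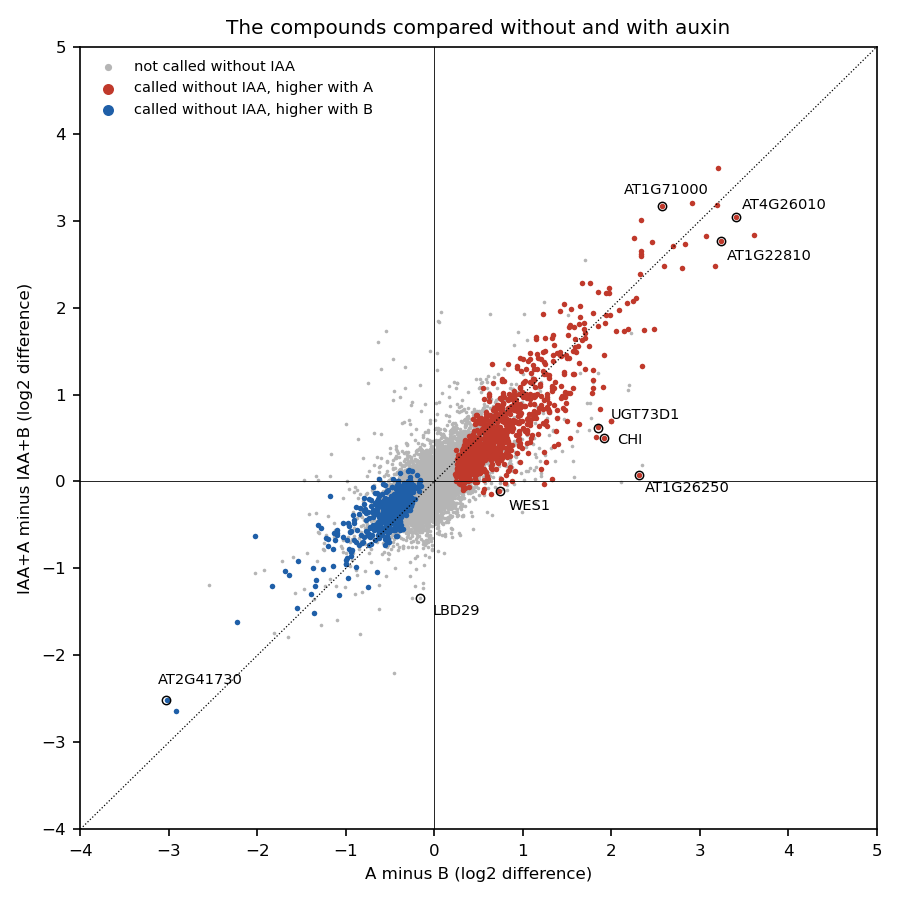
For 22746 probe sets the log2 difference of IAA with A minus IAA with B is plotted against that of A minus B, with probe sets called without IAA in red and blue and a dotted line of equal differences. Most coloured points lie on the same side of 0 on both axes. On average they fall short of the line, with a slope of 0.8 through the origin over the called probe sets, which were chosen by the difference without IAA. AT1G26250 and WES1 lie near 0 on the vertical axis and LBD29 near 0 on the horizontal axis.

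Whether the difference between the compounds itself changed with IAA was tested as a difference of differences, and limma called 0 probe sets, with 782 (3.44%) at an unadjusted p under 0.05. The count was 2 when only the arrays of the 4 groups were fitted and 11 without the third array of IAA with A. Single genes that looked unlike therefore cannot be called so: WES1 went from 0.74 to -0.11 (difference -0.84 ± 0.26, unadjusted p = 0.00462), BGLU27 went from 1.79 to 1.16 (-0.62 ± 0.16, unadjusted p = 0.00114), and BHLH101 from 0.64 to -0.14 (-0.78 ± 0.23, unadjusted p = 0.00275), each with an adjusted p of 1. AT1G26250 went from 2.31 to 0.07 (-2.24 ± 0.93), and its A arrays read 8.29 to 9.80 and its B arrays 5.87 to 8.23. LBD29 and LBD16 were lower with A in the presence of IAA, at -1.34 (adjusted p = 0.00483) and -1.08 (adjusted p = 0.0029), but their difference of differences did not pass either (adjusted p = 1).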

How the data were processed

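Total RNA of whole seedlings was hybridised to ATH1 arrays, 1 array per sample. The authors deposited 1 value for each probe set on each array, a log2 signal. The summarisation, background correction and normalisation of the probes are not given in the sources used here. Values ran from 3.02 to 13.91, so no transformation or pseudocount was applied. Precision is limited by the small number of arrays.

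Of 22810 probe sets, 64 array controls were left out. The platform annotation paired 13513 with 1 gene, 503 with several and 8730 with none, and only the first kind was named, with symbols of the RefSeq gene table. Of 48 gene lists, 13 had no measured member. The arrays compared, the lists and the named genes were chosen with earlier results of these data known.

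All 21 arrays entered 1 limma model (limma 3.58.1, R 4.3.3) that gave each of the 6 groups its own mean and moderated the variances along a trend with signal. Tests were two-sided, adjusted over 22746 probe sets by the Benjamini-Hochberg method, with a threshold of 0.05. A call is an adjusted p under it. Standard errors (SE) and 95% intervals come from the same fit. The fit was also run on simulated data with independent normal noise. No array stood apart in that simulation, so it says nothing about the effect of the arrays that did so here.

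Genes were named by this rule: the 12 largest called differences in each direction with 1 gene, up to 6 called members of each list, up to 2 of a list with none, and the 10 with the largest mean difference from DMSO among those both compounds moved the same way. Called genes with a symbol and at least a 2-fold difference, 16 further genes and the largest probe set without a gene in each direction were added after the values were seen. The text gives part of the 114 genes and probe sets so chosen.

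Alternatives tried were a threshold of 0.01, leaving out arrays, a replicate block, array weights, other moderation, only the arrays of the groups compared, probe sets in the upper 60% by signal, and quantile scaling. Sequences, including the promoters that had been meant for a motif count, and coordinates were not used here.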

Additional observations from a re-analysis of the deposited data

Results flagged for a closer look

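Among 114 genes and probe sets, the 4 DMSO arrays and the 4 A arrays were each searched for a value far from the others of its group. Of 228 groups of 4, 22 held an array whose gap to its nearest neighbour was above Dixon's 95% critical share of the group's range. Chance flags about 1 in 20 groups. Of the 22, 6 lay in A 2 and 5 in DMSO 2, and the genes share these arrays, so the cases are not independent. No cause was tested.

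A 2 stood above the other A arrays for AT5G04960 (9.02), XTH26 (8.06), EXPA18 (8.82), ALPHA-VPE (7.10) and AT5G62360 (8.37), and below them for Hsp70-2 (9.19). DMSO 2 stood below the other DMSO arrays for AT1G34510 (5.97), HRGP1 (9.54), GH9C1 (7.39), AT1G55290 (6.11) and AT5G38700 (5.05).

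Among the remaining DMSO arrays, DMSO 1 read 7.97 for AT2G41730, above the others. DMSO 3 read 8.84 for bZIP19, below the others, and 4.14 for COR15A, above them. DMSO 4 read 8.75 for BZIP28 and 6.37 for AT4G27654, above the others, and 7.05 for AT5G62360, below them. Among the remaining A arrays, A 1 read 8.03 for GEM and A 3 read 11.56 for AT1G05575, both below the others. A 4 stood above the others for BGLU28 (8.24) and JAL22 (11.15) and below them for RR16 (5.98). For bZIP19, COR15A, BZIP28 and GEM the whole range of the group was under 0.2 log2 units.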

How the results depend on the processing

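For A minus B, the 1448 calls became 602 with only the A and B arrays, 3310 with array weights, 2771 without the 4 arrays that stood apart and 491 at an adjusted p of 0.01, and ran from 485 to 1590 when 1 array was left out. For A minus B with IAA, the 642 calls became 3518 with array weights, 2076 without the 4 arrays and 258 at 0.01, and ran from 243 to 712. The difference of differences gave 2 calls with only the arrays of its groups and 0 to 11 when 1 array was left out. For A minus DMSO, the 1909 calls became 881 with only its arrays, 3678 with array weights and 4048 without the 4 arrays, and ran from 1413 to 2992 (without A 2). For B minus DMSO, the 1991 calls became 1080 with only its arrays and ran from 1373 to 2132. The cause was not tested. Of 73 called genes and probe sets named, 36 were lost at an adjusted p of 0.01, 35 kept their call in every alternative with that one included, and 0 changed sign. At 0.05, calls were lost without B 3 for 32, without B 2 for 30, with only the A and B arrays for 23 and after quantile scaling for 1. The 23 included CHI, OSM34, ROF2, Hsp70-2, AT3G13610, GAMMA-VPE, ALPHA-VPE, CML23, CYP71B6 and GEM. They also included AGO7, PRXR1, EXPA15, NRPE7, GSTU22, rpl36, cemA, ycf4 and AT5G62360. Among the named genes not called, 11 took another sign in 24 fits without being called. Leaving out arrays DMSO 2, DMSO 4, A 2 and the first of IAA with B ended the call of 1. Leaving out IAA 2 and, against DMSO, each array in turn were chosen after seeing the data.

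With the replicate number as a block, 1674 probe sets were called for A minus B, 772 with IAA, 2123 for A minus DMSO and 2295 for B minus DMSO. The numbers were not taken to pair the samples. Deviations of A and B arrays of the same number correlated at 0.05, 0.05 and 0.11, each of them best with its own number, and those of the arrays with IAA at -0.43, 0.24 and -0.39, 1 of 3 best with its own.

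A block for chip lot or scan date was not run, since all arrays give 1 chip lot and 0 give a date. Promoter motifs were not counted, as no promoter sequences were used here. Probe sets near the bottom of the scale, such as AT3G54520 with A, cannot show a lower level.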

Other observations

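GAMMA-VPE, ALPHA-VPE and bZIP19, not described above, were also higher with A and were named after their values were seen, with no list behind them. GAMMA-VPE and ALPHA-VPE encode vacuolar processing enzymes, proteases that mature other vacuolar proteins. GAMMA-VPE read 9.03, 10.05, 9.05 and 9.21 with A, 8.76, 8.53 and 8.40 with B, and 9.14 to 9.94 with DMSO, and A minus B was 0.77 ± 0.20 (limma, adjusted p = 0.0278). ALPHA-VPE read 6.40, 7.10, 6.37 and 6.45 with A and 6.09, 5.90 and 6.07 with B, a difference of 0.56 ± 0.14 (adjusted p = 0.0207). In both, A lay above B without overlap, A 2 was the highest array, and the call was lost without B 2 or B 3 (adjusted p up to 0.138 and 0.137). bZIP19, a transcription factor of the zinc deficiency response, read 8.87 to 9.06 with A, 8.49 to 8.59 with B and 8.84 to 9.03 with DMSO. It fell by 0.44 with B against DMSO (adjusted p = 0.000989), and A minus B was 0.43 ± 0.08 (adjusted p = 0.00329), called in every alternative.

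DLAH, an acylhydrolase related to an enzyme of jasmonate formation, rose with both compounds, by 3.23 with A and by 2.05 with B. It read 10.86, 11.04, 10.32 and 9.89 with A, 9.46, 9.36 and 9.21 with B and 6.82 to 8.21 with DMSO, and A exceeded B by 1.19 ± 0.26 (adjusted p = 0.0107, 0.0654 without B 3). AGO7, an Argonaute protein of small RNA pathways, stood on the B side at -0.43 ± 0.12 (adjusted p = 0.0313), and its call was lost without A 1, A 2 or any B array (up to 0.103). GEM, named for its effect on the epidermal patterning gene GL2, read 8.03 to 8.21 with A and 7.60 to 7.83 with B, a difference of 0.44 ± 0.10 (adjusted p = 0.0139), lost without B 3 (up to 0.094).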
